A study of Phaseolus vulgaris with 18 samples.

Results

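Pod walls of 2 common bean (Phaseolus vulgaris) lines were compared at 14 days after flowering (DAF) by sequencing of poly(A) RNA. The golden line, A18-1, bears pods that pass from green to gold as they grow to market size, and the green line, Renaya, bears pods that stay green until they ripen. The comparison took 6 of the 18 libraries of the series, 3 from each line, selected by the line and age in the labels, and it covered 22177 genes that passed a filter on low counts, of 24489 named genes in the table. All plants stood in a climate chamber with no treatment, and the design text calls the 3 libraries of a group independent biological repeats. The other 12 libraries, from the same lines at 10 and 18 DAF, served to estimate the spread and to ask whether the difference between the lines changed with age. The lines are separate genotypes, and the labels name no sister line that differs only in pod colour. Differences tied to pod colour and to the rest of the genotype thus cannot be told apart.

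The wall of a green pod is a photosynthetic organ. Its chloroplasts hold antenna proteins that bind chlorophyll and pass light energy to photosystems I and II, and the Calvin cycle fixes carbon dioxide with the products of the light reactions. Chlorophyll is built from glutamate through a porphyrin pathway and is taken apart by a dedicated set of enzymes when fruits ripen or leaves senesce, while yellow carotenoids may stay behind or be made anew.

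Total counts of the 6 libraries ran from 50657126 to 74377200. Pearson correlations of log2 library-scaled counts across genes ran from 0.942 to 0.966 between golden libraries, from 0.951 to 0.969 between green libraries, and from 0.804 to 0.895 between the lines. Values given as ± are standard deviations of 3 libraries. On the first principal component of the series, which held 39.6% of the variance, the golden libraries lay at -128.8, -122.7 and -81.1 and the green libraries at 127.6, 68.8 and 79.5 (replicates 1, 2 and 3). On this component green replicate 1 lay next to the green libraries of 10 DAF, which ran from 139.5 to 156.9. Golden replicate 3 lay nearest to the green line there. On the second component (18.35% of the variance) green replicate 1 lay at -9.3, against 41.8 to 52.1 for the green libraries of 10 DAF. Counts of called genes that moved by over 1.5 times when 1 library was left out, and calls of named genes that were lost, are given with that library.

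One label field of these libraries names leaf, and the extraction text speaks of an adipose type, whereas the design text gives pod wall, which is followed here. Of the fruit identity markers, the description matched AGAMOUS-like 8, the FRUITFULL gene that patterns the wall of the Arabidopsis fruit. Phvul.009G203400, the more abundant gene of that name, stood at 222, 175 and 127 FPKM in the golden line and 30.1, 42.5 and 52.6 in the green line. It was read in all 6 libraries and was higher in every golden one (log2 fold change 2.07, SE 0.41, adjusted p = 0.0014). The other fruit, ovule and stomatal markers carry only family names in the table and could not be matched. Genes described as seed storage or late embryogenesis proteins made up 0.107% to 0.149% of the summed FPKM (fragments scaled by transcript length and by the mapped fragments of the library) of a golden library and 0.0659% to 0.103% of a green one. Of 24 tested genes of this group 5 were higher in the golden line and 3 lower (median log2 0.68). The oleosin and cupin genes named next, both lower in the golden libraries, thus do not stand for the group. The oleosin gene Phvul.008G144500, which codes for a coat protein of seed oil bodies, was the most abundant oleosin and stood at 2.44, 6.17 and 9.997 FPKM in the golden libraries and 49.0, 31.8 and 19.4 in the green ones. Of the genes described only as cupin family proteins, the more abundant one, Phvul.007G173600, had 0.923, 1.87 and 0.616 FPKM in the golden line and 5.15, 3.62 and 6.59 in the green line. Whether carry-over of seed tissue bears on other differences was not tested.

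At 14 DAF the lines differed in a large share of all genes. With edgeR's quasi-likelihood test and Benjamini-Hochberg adjustment over 22177 genes, 9132 passed an adjusted p of 0.05 (41.2%), of which 4539 were higher in the golden line (20.5%) and 4593 lower (20.7%). Counts of members of a gene group below are to be read against these 2 shares. The difference was at least 2-fold for 2944 higher and 2487 lower genes and at least 16-fold for 486 and 379, while 3701 of the called genes differed by less than 2-fold. The median log2 fold change over all tested genes was -2e-04. When each of the 6 libraries was left out in turn, 6920 to 9029 genes passed. In the groups below with a count of 0 in one direction, 0 or 1 gene reached an unadjusted p of 0.05 in that direction with edgeR, and DESeq2 called 0. Limma called 1 photosystem gene lower with either pseudocount and 0 in the other such groups. FPKM of the 3 golden and 3 green libraries did not overlap for 11852 genes (53.4%).

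**Figure D1:**
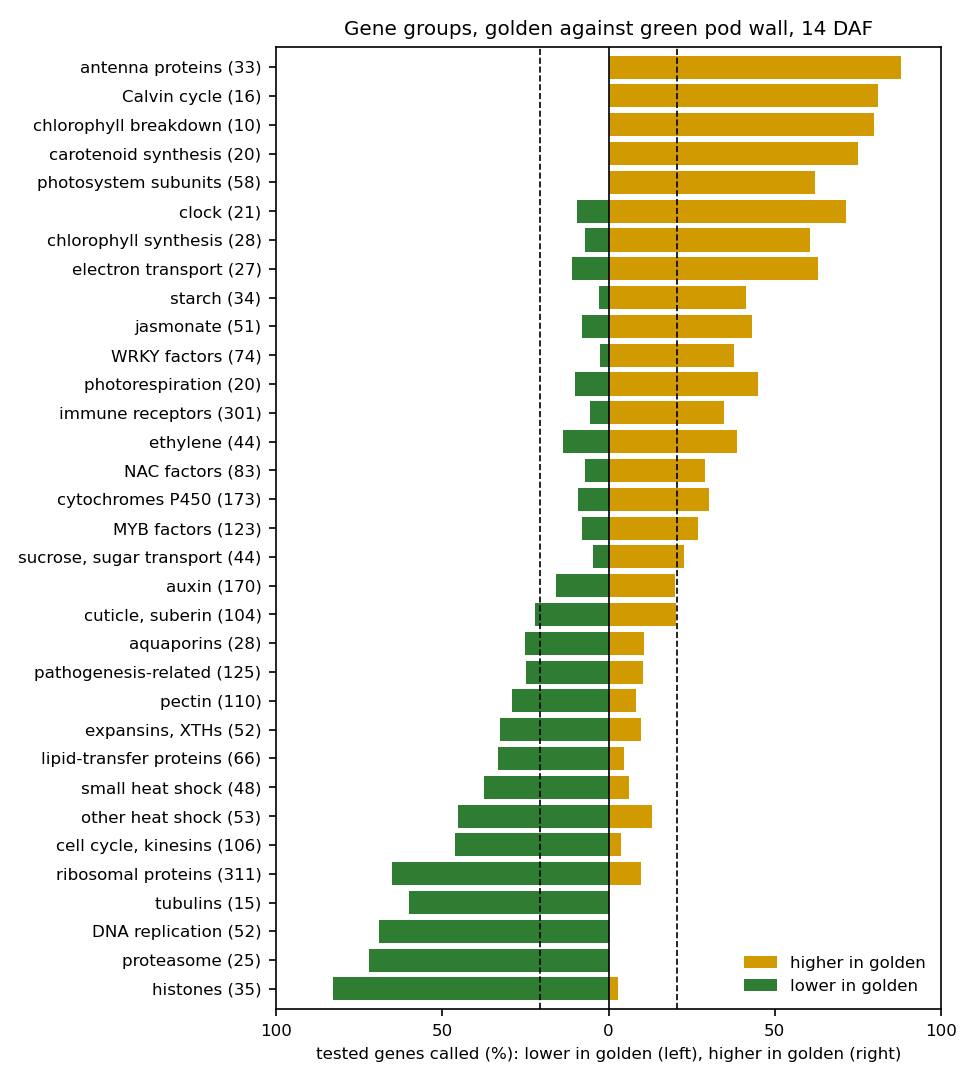
Percent of the tested members of each gene group called higher (right) or lower (left) in golden than in green pod walls at 14 DAF (adjusted p under 0.05), with the number tested in brackets. Dashed lines mark the shares over all 22177 genes, 20.5% higher and 20.7% lower, and the antenna proteins (87.9% higher) and histones (82.9% lower) stand at the ends.

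Genes for the light-harvesting antenna were higher in the golden line almost throughout. Of 33 tested members 29 were higher and 0 lower, with a median log2 fold change of 1.79. Together they made up 2.70%, 3.40% and 3.18% of the summed FPKM of the golden libraries and 1.12%, 1.15% and 1.41% of the green ones, so the lines did not overlap. In bulk tissue, more cells of a type and more RNA per cell cannot be told apart.

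Phvul.001G242100, a light-harvesting protein of photosystem II, stood at 293, 516.5 and 319.8 FPKM in the golden libraries and 3.38, 2.85 and 28.0 in the green ones. Every golden library was at least 10 times above the highest green one, and the green libraries themselves spread almost 10-fold (log2 fold change 5.09, SE 1.29, adjusted p = 0.0063). Phvul.009G064900, a light-harvesting protein of photosystem I, stood at 40.9, 29.2 and 22.3 FPKM in the golden line and 1.53, 2.55 and 3.30 in the green line (log2 fold change 3.65, SE 0.76, adjusted p = 0.0020). Phvul.004G093194, chlorophyll a/b binding protein 1, stood at 339.5, 364 and 370.5 FPKM in the golden libraries and 47.6, 55.2 and 69.8 in the green ones, tight within both lines and without overlap (log2 fold change 2.64, SE 0.51, adjusted p = 0.0012). Phvul.007G062000, described only as a chlorophyll a/b binding family protein, stood at 478, 845.5 and 186.5 FPKM in the golden line and 8.20, 4.73 and 156 in the green line (log2 fold change 3.21, SE 1.17, adjusted p = 0.040). Its green replicate 3 came close to golden replicate 3, and the call was lost without golden replicate 1, golden replicate 2, green replicate 1 or green replicate 2, with adjusted p up to 0.12, and also when only the 6 libraries of 14 DAF entered the fit. The most abundant antenna gene, Phvul.002G196400, did not pass the test at 3928, 5038 and 4615 FPKM in the golden libraries and 3376, 2790.0 and 2988 in the green ones (log2 fold change 0.56, SE 0.25, adjusted p = 0.088).

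Subunits of the photosystems followed the antenna. Of 58 tested genes 36 were higher and 0 lower, with a median log2 fold change of 1.08 and a share of the summed FPKM of 2.35% to 2.62% in golden and 0.893% to 1.16% in green libraries. One gene was lower without golden replicate 1. Phvul.002G140800, subunit K of photosystem I, which helps to bind its antenna, stood at 176, 146 and 138 FPKM in the golden line and 18.3, 26.1 and 36.2 in the green line (log2 fold change 2.52, SE 0.35, adjusted p = 1.8e-04). PsbQ-like 1 (Phvul.005G090800), a member of the family of oxygen-evolving complex proteins that in Arabidopsis serves the chloroplast NADH dehydrogenase-like complex, stood at 13.2, 18.6 and 12.1 FPKM in the golden libraries and 0.487, 1.27 and 1.69 in the green ones (log2 fold change 3.68, SE 0.85, adjusted p = 0.0037). Both genes were high in the 3 golden libraries and low in the 3 green ones. Photosystem II subunit X (Phvul.003G132500) was among the 22 members that did not pass, at 255, 246 and 274 FPKM in the golden line and 215, 234 and 245 in the green line (log2 fold change 0.16, SE 0.22, adjusted p = 0.59).

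Genes grouped under photosynthetic electron transport by description or orthologue were higher more often than lower. Of 27 tested genes 17 were higher and 3 lower (median log2 1.27). The higher genes with the largest differences belong to cyclic electron flow around photosystem I. NDH-dependent cyclic electron flow 5 (Phvul.004G079500) stood at 18.8, 28.3 and 27.2 FPKM in the golden libraries and 2.50, 1.69 and 1.76 in the green ones (log2 fold change 3.61, SE 0.44, adjusted p = 7.1e-05). NDH-dependent cyclic electron flow 1 (Phvul.001G110100) had 25.9, 40.3 and 25.4 FPKM in the golden line and 1.18, 2.38 and 5.12 in the green line (log2 fold change 3.42, SE 0.67, adjusted p = 0.0013). The golden libraries were the high ones in both. The 3 lower genes were a ferredoxin, a ferredoxin-related gene and an alpha-helical ferredoxin whose orthologue is a subunit of mitochondrial succinate dehydrogenase. The last is thus no photosynthetic carrier by its annotation, and whether the others are was not tested. Of these, ferredoxin 3 (Phvul.011G094400) stood at 16.4, 15.6 and 20.9 FPKM in the golden libraries and 31.1, 36.0 and 36.7 in the green ones (log2 fold change -0.97, SE 0.31, adjusted p = 0.020). Its call was lost without golden replicate 1 or golden replicate 2 (adjusted p up to 0.075).

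Genes of the Calvin cycle were higher as well. Of 16 tested genes 13 were higher and 0 lower, with a median log2 fold change of 2.19, the highest of the photosynthetic groups. Without green replicate 1 there was 1 lower gene. CP12 domain-containing protein 2 (Phvul.007G214200), a small protein that ties up the enzymes GAPDH and phosphoribulokinase in the dark, stood at 562, 606 and 181 FPKM in the golden line and 0.160, 1.16 and 16.5 in the green line. The green libraries spread about 100-fold, yet all lay below the golden ones (log2 fold change 6.30, SE 1.54, adjusted p = 0.0050). A second CP12 gene (Phvul.001G212900) stood at 876, 849 and 690.1 FPKM in the golden libraries and 235, 309.9 and 372 in the green ones, a smaller difference (log2 fold change 1.40, SE 0.34, adjusted p = 0.0046). Transketolase (Phvul.007G006600), which rearranges sugar phosphates, stood at 304, 329 and 295 FPKM in the golden line and 51.5, 57.6 and 84.3 in the green line (log2 fold change 2.27, SE 0.46, adjusted p = 0.0017). Sedoheptulose-bisphosphatase (Phvul.001G240200), which is specific to the cycle, had 201.5, 246 and 198 FPKM in the golden libraries and 33.3, 45.6 and 61.6 in the green ones (log2 fold change 2.21, SE 0.51, adjusted p = 0.0035). Neither gene's libraries overlapped between the lines. A gene described as ribulose-bisphosphate carboxylases (Phvul.004G121633) stood at 27.4, 26.4 and 25.9 FPKM in the golden line and 61.1, 6.42 and 25.0 in the green line and did not pass (log2 fold change -0.27, SE 0.68, adjusted p = 0.78).

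Photorespiration recovers the glycolate that rubisco makes when it takes up oxygen. Of 20 tested genes 9 were higher and 2 lower (median log2 0.61), and those with the largest differences belong to separate steps of the path. The count of lower genes was 1 without golden replicate 1 or green replicate 1, 4 without golden replicate 3, and 0 when only the 6 libraries of 14 DAF entered the fit. The gene of 2-phosphoglycolate phosphatase 1 (Phvul.008G051700) stood at 282.5, 402.5 and 299.9 FPKM in the golden libraries and 25.3, 47.1 and 71.5 in the green ones (log2 fold change 2.79, SE 0.54, adjusted p = 0.0012). Alanine:glyoxylate aminotransferase (Phvul.006G029100) stood at 467, 521 and 306 FPKM in the golden line and 12.8, 50.3 and 97.3 in the green line (log2 fold change 3.04, SE 0.88, adjusted p = 0.013). Serine transhydroxymethyltransferase 1 (Phvul.003G286600), the mitochondrial step, stood at 367, 501 and 348 FPKM in the golden libraries and 15.7, 54.7 and 74.9 in the green ones (log2 fold change 3.09, SE 0.80, adjusted p = 0.0070). In these 3 genes green replicate 1 was the lowest library and green replicate 3 the highest green one, and no green library reached a golden one. The serine hydroxymethyltransferase isoforms 4 (Phvul.003G051100) and 2 (Phvul.008G184200) went the other way, with log2 fold changes of -0.82 and -0.86 (adjusted p = 0.011 and 0.0082). The call for isoform 4 was lost without golden replicate 1 or green replicate 1 (adjusted p up to 0.061). Both calls were lost with the 14 DAF libraries alone (adjusted p = 0.062 for isoform 4 and 0.051 for isoform 2).

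**Figure D2:**
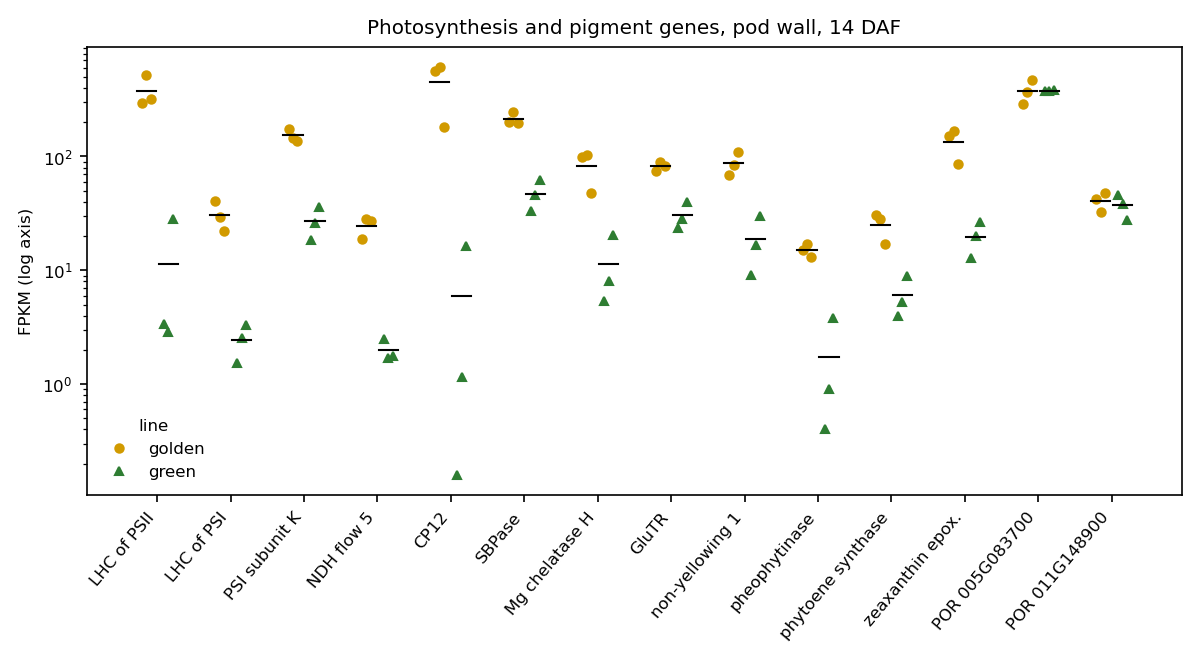
FPKM (log axis) of 14 genes of photosynthesis, chlorophyll and carotenoids in each golden (gold circles) and green (green triangles) library at 14 DAF, with a horizontal bar at the mean of 3 libraries. In the 12 leftmost genes every golden library lies above every green one, and in both protochlorophyllide oxidoreductase genes at the right the lines overlap.

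Chlorophyll synthesis was higher in the golden line, unevenly along the pathway. Of 28 tested genes 17 were higher and 2 lower (median log2 0.57), and 11 were higher without green replicate 3. The count of lower genes was 1 without golden replicate 1, golden replicate 2, green replicate 1 or green replicate 3. The genes made up 0.213% to 0.252% of the summed FPKM in golden and 0.130% to 0.151% in green libraries. The largest difference lay at magnesium chelatase, which inserts magnesium and so commits porphyrin to chlorophyll. Its H subunit Phvul.007G252700 stood at 99.1, 102 and 47.6 FPKM in the golden line and 5.39, 8.13 and 20.6 in the green line, with the lowest golden library still more than 2 times the highest green one (log2 fold change 2.89, SE 0.55, adjusted p = 0.0011). The entry enzyme glutamyl-tRNA reductase (Phvul.008G185100) stood at 75.1, 89.0 and 83.2 FPKM in the golden libraries and 23.5, 28.2 and 40.1 in the green ones (log2 fold change 1.44, SE 0.26, adjusted p = 7.6e-04). Magnesium-protoporphyrin methyltransferase (Phvul.002G281900), the step after the chelatase, stood at 89.3, 102 and 125 FPKM in the golden line and 37.8, 51.8 and 51.9 in the green line (log2 fold change 1.16, SE 0.21, adjusted p = 8.6e-04). The groups did not overlap in either gene.

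For protochlorophyllide oxidoreductase and a chlorophyll synthase gene, which belong to late steps of chlorophyll synthesis, no difference passed the test. Protochlorophyllide oxidoreductase, the light-driven step, had 2 tested genes, and Phvul.005G083700, the more abundant, stood at 291, 368 and 467 FPKM in the golden libraries and 377, 376 and 382 in the green ones, with overlapping lines (log2 fold change -0.02, SE 0.19, adjusted p = 0.95). Chlorophyll synthase (Phvul.008G096500, so annotated by its KEGG orthologue), which adds the phytol tail, stood at 22.4, 26.7 and 39.4 FPKM in the golden line and 32.8, 30.8 and 30.2 in the green line and overlapped as well (log2 fold change -0.09, SE 0.21, adjusted p = 0.76). One gene annotated as the I subunit of magnesium chelatase (Phvul.003G057600) was lower in the golden line, at 1.61, 1.72 and 2.19 FPKM in the golden libraries and 5.83, 5.99 and 6.78 in the green ones (log2 fold change -1.75, SE 0.26, adjusted p = 2.6e-04). Another (Phvul.006G178400) had 100.6, 121 and 155 FPKM in the golden line and 57.5, 62.6 and 64.4 in the green line (log2 fold change 1.03, SE 0.25, adjusted p = 0.0053).

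Chlorophyll breakdown was higher as well. Of 10 tested genes 8 were higher and 0 lower (median log2 1.08), with 1 lower without golden replicate 3. Non-yellowing 1 (Phvul.002G153100), named for the stay-green protein that starts the breakdown by removing magnesium, stood at 68.5, 84.8 and 109 FPKM in the golden libraries and 9.19, 16.7 and 30.3 in the green ones (log2 fold change 2.25, SE 0.36, adjusted p = 4.0e-04). Pheophytinase (Phvul.011G013400), which cuts the phytol tail from pheophytin, stood at 15.1, 17.1 and 13.2 FPKM in the golden line and 0.400, 0.902 and 3.85 in the green line (log2 fold change 3.17, SE 0.83, adjusted p = 0.0074). Chlorophyllase 2 (Phvul.007G278100) had 52.7, 62.2 and 46.5 FPKM in the golden libraries and 5.87, 9.06 and 10.5 in the green ones (log2 fold change 2.67, SE 0.31, adjusted p = 5.3e-05). All 3 were without overlap. For the gene annotated as chlorophyll b reductase (Phvul.004G163900), which begins the conversion of chlorophyll b to a, the values were 45.9, 42.0 and 35.9 FPKM in the golden line and 13.3, 15.2 and 19.8 in the green line (log2 fold change 1.35, SE 0.20, adjusted p = 2.8e-04). The chlorophyllase 1 gene (Phvul.004G154100) was barely read, at 0, 0 and 0.127 FPKM in the golden libraries and 0.0974, 1.08 and 0.887 in the green ones, and did not pass (log2 fold change -3.86, SE 1.91, adjusted p = 0.12).

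Of 20 tested carotenoid synthesis genes 15 were higher and 0 lower (median log2 0.92). Phytoene synthase (Phvul.008G195800), the entry enzyme, stood at 30.4, 28.2 and 17.1 FPKM in the golden line and 3.99, 5.29 and 8.83 in the green line (log2 fold change 2.07, SE 0.37, adjusted p = 7.4e-04). Beta-hydroxylase 1 (Phvul.007G074200), which makes zeaxanthin, stood at 58.1, 70.2 and 31.2 FPKM in the golden libraries and 7.90, 7.06 and 12.8 in the green ones (log2 fold change 2.52, SE 0.46, adjusted p = 8.3e-04). Zeaxanthin epoxidase (Phvul.003G243800), the enzyme that epoxidises zeaxanthin, had 152, 166.5 and 86.6 FPKM in the golden line and 12.96, 19.9 and 26.4 in the green line (log2 fold change 2.78, SE 0.43, adjusted p = 3.5e-04). In all 3 golden replicate 3 was the lowest golden library and lay above every green one. The most abundant phytoene synthase gene, Phvul.008G241500, overlapped between the lines at 82.2, 71.0 and 59.9 FPKM in the golden libraries and 30.7, 46.9 and 74.0 in the green ones and did not pass (log2 fold change 0.50, SE 0.24, adjusted p = 0.10).

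Of 7 tested carotenoid cleavage genes 3 were higher and 1 lower, or 2 lower without golden replicate 1. Carotenoid cleavage dioxygenase 1 (Phvul.011G211200), which releases volatile apocarotenoids, stood at 166, 154 and 111 FPKM in the golden line and 38.2, 52.5 and 50.9 in the green line (log2 fold change 1.60, SE 0.28, adjusted p = 7.1e-04). Nine-cis-epoxycarotenoid dioxygenase 4 (Phvul.002G120600), whose Arabidopsis counterpart CCD4 degrades carotenoids in seeds and leaves, stood at 332, 259 and 278 FPKM in the golden libraries and 47.1, 79.2 and 58.3 in the green ones (log2 fold change 2.23, SE 0.41, adjusted p = 8.5e-04). The 3 golden libraries were all above the 3 green ones in both. Nine-cis-epoxycarotenoid dioxygenase 9 (Phvul.005G051600), a member of the family that makes the precursor of abscisic acid, stood at 145, 81.3 and 59.1 FPKM in the golden line and 14.6, 22 and 38.0 in the green line (log2 fold change 1.94, SE 0.47, adjusted p = 0.0050). Among 39 tested genes grouped under abscisic acid by description or orthologue, which include these 2 dioxygenases, 6 were higher and 8 lower (median log2 0.07). That count of 6 was 3 without golden replicate 1 or green replicate 1, and the count of 8 was 4 without golden replicate 2 and 5 without green replicate 2 or green replicate 3.

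Regulators of the plastid and of light responses differed in both directions. Of 39 tested genes for plastid sigma factors, protein import and plastid division 17 were higher and 5 lower (median log2 0.43). The lower genes numbered 3 without golden replicate 1, golden replicate 2 or green replicate 1, and 3 with the 14 DAF libraries alone. Sigma factor E (Phvul.001G061400), which guides the plastid RNA polymerase to its promoters, stood at 40.3, 40.5 and 28.9 FPKM in the golden libraries and 4.77, 5.45 and 9.97 in the green ones (log2 fold change 2.45, SE 0.31, adjusted p = 9.4e-05). No library of one line reached those of the other. Of 52 tested genes of light signalling 17 were higher and 6 lower (median log2 0.52). Cryptochrome 2 (Phvul.007G273300), a blue light receptor, stood at 12.2, 11.1 and 9.64 FPKM in the golden line and 2.08, 2.02 and 3.46 in the green line (log2 fold change 2.12, SE 0.33, adjusted p = 3.0e-04). Phytochrome interacting factor 3 (Phvul.007G208500), a repressor of greening in the dark in Arabidopsis, stood at 1.001, 0.540 and 0.557 FPKM in the golden libraries and 6.29, 10.8 and 1.67 in the green ones (log2 fold change -3.16, SE 0.58, adjusted p = 8.8e-04). Green replicate 3 was well below the other green libraries in this gene and still above the golden ones.

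Clock genes differed strongly between the lines, and the hour of sampling is not in the labels. Of 21 tested genes 15 were higher in the golden line and 2 lower (median log2 1.02), and the group made up 0.251% to 0.281% of the summed FPKM in golden and 0.0941% to 0.116% in green libraries. The 2 lower calls were 0 without golden replicate 1 and 1 without golden replicate 2, green replicate 1 or green replicate 3. Pseudo-response regulator 5 (Phvul.009G045000), GIGANTEA (Phvul.004G088300) and FKF1 (Phvul.002G321800) peak in the afternoon in Arabidopsis, and pseudo-response regulator 5 stood at 71.1, 97.6 and 67.9 FPKM in the golden line and 3.77, 4.33 and 6.86 in the green line (log2 fold change 3.99, SE 0.32, adjusted p = 2.6e-06). GIGANTEA stood at 12.6, 16.98 and 8.04 FPKM in the golden libraries and 1.15, 0.898 and 1.52 in the green ones (log2 fold change 3.38, SE 0.33, adjusted p = 2.0e-05). FKF1 had 19.7, 26.8 and 23.8 FPKM in the golden line and 4.67, 3.33 and 3.56 in the green line (log2 fold change 2.58, SE 0.29, adjusted p = 5.0e-05). The libraries of a line lay close together and far from those of the other line. Cold, circadian rhythm and RNA binding 2 (Phvul.009G023700), an output gene of the clock, stood at 347, 550.0 and 394 FPKM in the golden libraries and 109, 55.8 and 60.1 in the green ones (log2 fold change 2.49, SE 0.28, adjusted p = 5.1e-05). What part a difference in sampling hour has in these values, or in those of the photosynthetic genes, was not tested.

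Starch genes were higher more often than lower, with 14 and 1 of 34 tested (median log2 0.41). Their share of the summed FPKM overlapped between the lines. It was 0.2265%, 0.2657% and 0.2593% in the golden libraries and 0.3204%, 0.1714% and 0.1404% in the green ones. ADP-glucose pyrophosphorylase 1 (Phvul.008G284000), the committing step of starch synthesis, stood at 237.5, 259 and 383 FPKM in the golden line and 79.6, 108 and 95.7 in the green line, with no overlap (log2 fold change 1.63, SE 0.37, adjusted p = 0.0032). The alpha-glucan phosphorylase 2 gene (Phvul.006G064100), which releases glucose phosphate from glucans, stood at 48.83, 60.9 and 56.6 FPKM in the golden libraries and 7.88, 10.8 and 10.3 in the green ones (log2 fold change 2.52, SE 0.30, adjusted p = 6.7e-05). Of 44 tested genes for sucrose metabolism and sugar transport 10 were higher and 2 lower (median log2 0.12), and 3 were higher without green replicate 1, 5 without golden replicate 2, and 6 without golden replicate 1, green replicate 2 or green replicate 3. Without green replicate 1 there were 5 lower genes. The log2 fold changes of the tested members reached 9.14. A Nodulin MtN3 gene (Phvul.002G300900) of the SWEET family of sugar exporters stood at 9.88, 34.1 and 26.2 FPKM in the golden line and 0, 0.173 and 0 in the green line (log2 fold change 8.60, SE 1.27, adjusted p = 3.6e-04). It was all but unread in the green line. Of the 2 most abundant uncalled members, sucrose synthase 4 (Phvul.003G127500), which cleaves sucrose in sink tissue, stood at 107, 113 and 345 FPKM in the golden libraries and 377, 491 and 228 in the green ones (log2 fold change -0.96, SE 0.41, adjusted p = 0.076).

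**Figure D3:**
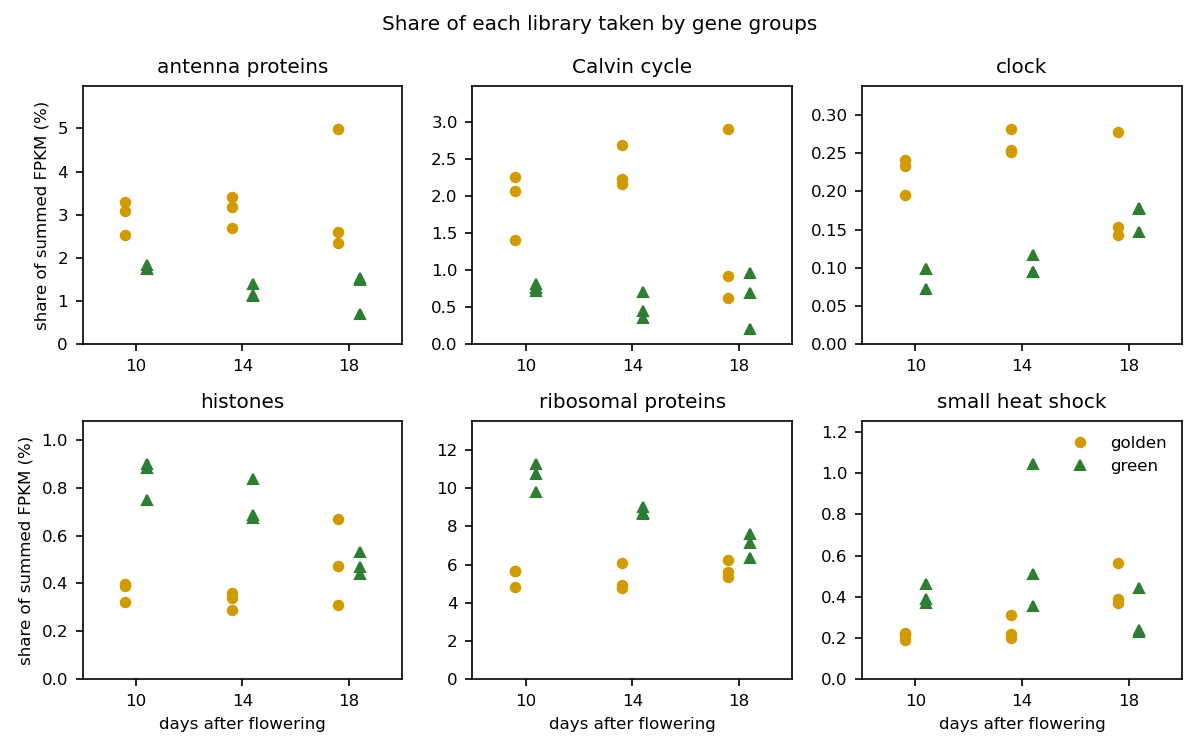
Share of the summed FPKM of a library (percent, each panel with its own axis starting at 0) taken by 6 gene groups in the golden (gold circles) and green (green triangles) libraries at 10, 14 and 18 DAF, 1 point per library. At 14 DAF the lines do not overlap in any panel, and they come closest in small heat shock proteins, with golden replicate 2 at 0.313% and green replicate 1 at 0.354%.

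Genes for histones, DNA replication, the cell cycle, tubulins, ribosomal proteins and the proteasome were lower more often than higher. Core and linker histones, which package DNA, had 29 of 35 tested genes lower in the golden line and 1 higher (median log2 -1.83). They took 0.290% to 0.359% of the summed FPKM in golden and 0.673% to 0.834% in green libraries. The histone gene Phvul.008G033700 stood at 22.2, 9.88 and 48.5 FPKM in the golden line and 246.5, 174 and 214 in the green line (log2 fold change -2.98, SE 0.56, adjusted p = 0.0011), with golden replicate 3 the highest golden library. The exception was linker histone H1-3 (Phvul.002G110800), which is stress-inducible in Arabidopsis, at 602, 498 and 172.5 FPKM in the golden libraries and 94.8, 184 and 199.7 in the green ones (log2 fold change 1.41, SE 0.35, adjusted p = 0.0055), where golden replicate 3 overlapped with the green libraries. Its call was lost with the 14 DAF libraries alone (adjusted p = 0.051).

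DNA replication genes were lower in 36 of 52 tested and higher in 0 (median log2 -1.24). Proliferating cell nuclear antigen 1 (Phvul.006G137800), the sliding clamp of DNA polymerase, stood at 11.9, 5.35 and 21.9 FPKM in the golden line and 71.4, 76.7 and 79.6 in the green line (log2 fold change -2.54, SE 0.52, adjusted p = 0.0017). Of 106 tested genes of the cell cycle and of kinesins 49 were lower and 4 higher (median log2 -0.87), and 29 and 27 were lower without golden replicate 1 and golden replicate 2. Of those higher, 2 were called without golden replicate 2 or green replicate 3. Cyclin-dependent kinase B1;2 (Phvul.008G253500), which drives entry into mitosis, stood at 4.07, 1.77 and 7 FPKM in the golden libraries and 14.9, 18.8 and 20.2 in the green ones (log2 fold change -2.06, SE 0.55, adjusted p = 0.0085). Kinesin 3 (Phvul.011G141500), a microtubule motor, had 4.56, 3.83 and 2.83 FPKM in the golden line and 19.9, 26.0 and 22.02 in the green line (log2 fold change -2.61, SE 0.38, adjusted p = 2.4e-04). In the clamp, the kinase and the histone, golden replicate 2 was the lowest library and golden replicate 3 the highest of its line. The replication gene with the most negative fold change, Phvul.009G084750 (DNA-directed DNA polymerases), was steady within lines at 1.54, 1.46 and 1.31 FPKM in the golden libraries and 15.5, 15.9 and 13.9 in the green ones (log2 fold change -3.40, SE 0.20, adjusted p = 1.6e-07).

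Tubulins, the subunits of microtubules, were lower in 9 of 15 tested genes and higher in 0 (median log2 -1.12), or 1 without green replicate 1. Tubulin beta 8 (Phvul.010G006400) stood at 17.4, 15.8 and 28.1 FPKM in the golden line and 77.3, 81.9 and 91.8 in the green line (log2 fold change -2.03, SE 0.34, adjusted p = 4.7e-04), without overlap. The tubulin beta-7 chain gene (Phvul.002G198600) stood at 285, 182 and 221 FPKM in the golden libraries and 241, 216 and 191 in the green ones and did not pass (log2 fold change 0.07, SE 0.17, adjusted p = 0.76). Genes of protein synthesis and turnover were lower too. Ribosomal proteins had 202 of 311 tested genes lower and 30 higher (median log2 -0.78), with 19 higher without green replicate 2 or green replicate 3. They took 4.76%, 4.94% and 6.08% of the summed FPKM in golden and 9.03%, 8.70% and 8.64% in green libraries. Proteasome subunits had 18 of 25 tested genes lower and 0 higher (median log2 -0.67), or 1 higher without golden replicate 2. Proteasome beta subunit C1 (Phvul.001G072000) stood at 70.0, 69.9 and 112 FPKM in the golden line and 179.9, 179 and 178 in the green line (log2 fold change -1.10, SE 0.19, adjusted p = 6.0e-04). Among the ribosomal genes that were higher, ribosomal protein S6e (Phvul.008G136400) stood at 195.5, 159 and 165 FPKM in the golden libraries and 41.0, 58.5 and 48.7 in the green ones (log2 fold change 1.80, SE 0.16, adjusted p = 5.7e-06).

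Several heat-inducible chaperones were far lower in the golden line than in the green one. HSP90.1 (Phvul.004G107700) stood at 18.4, 15.1 and 13.6 FPKM in the golden line and 359.9, 548 and 845.5 in the green line (log2 fold change -5.21, SE 0.77, adjusted p = 2.5e-04). A mitochondrial small heat shock protein (Phvul.011G016100) had 15, 31.8 and 19.6 FPKM in the golden libraries and 519, 686 and 1057 in the green ones (log2 fold change -5.08, SE 0.80, adjusted p = 3.6e-04). HSP70B (Phvul.003G154800) stood at 14.2, 18.2 and 6.92 FPKM in the golden line and 137, 129 and 354 in the green line (log2 fold change -3.96, SE 0.70, adjusted p = 7.0e-04). HSP101 (Phvul.004G044100), which pulls aggregated proteins apart, had 1.59, 2.67 and 1.36 FPKM in the golden libraries and 52.2, 43.0 and 91.7 in the green ones (log2 fold change -5.05, SE 1.09, adjusted p = 0.0024). Green replicate 3 was the highest library in all 4, and the lowest green library still lay far above the highest golden one. As groups, small heat shock proteins and related HSP20-like genes had 18 of 48 tested genes lower and 3 higher (median log2 -0.91), and HSP70, HSP90, HSP100 and heat shock factors 24 of 53 lower and 7 higher (median log2 -0.66). The 3 higher genes were 5 without green replicate 3, and the 7 were 4 without golden replicate 1 or green replicate 1. Heat shock transcription factors were among the higher genes, with factor A8 (Phvul.002G322700) at 14.6, 20.7 and 14.4 FPKM in the golden line and 2.85, 4.54 and 3.74 in the green line (log2 fold change 2.16, SE 0.23, adjusted p = 3.0e-05). Factor A4A (Phvul.006G171700) had 23.3, 21.7 and 12.7 FPKM in the golden libraries and 4.29, 6.47 and 7.24 in the green ones (log2 fold change 1.68, SE 0.24, adjusted p = 2.0e-04).

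Genes of wall extension were lower more often than higher. Of 52 tested expansins and xyloglucan endotransglucosylases, which loosen the wall during growth, 17 were lower and 5 higher (median log2 -1.07), with 3 higher without green replicate 1. Expansin A8 (Phvul.006G077200) stood at 2.77, 1.11 and 4.22 FPKM in the golden line and 110.1, 64.3 and 32.5 in the green line (log2 fold change -4.71, SE 0.93, adjusted p = 0.0014). Expansin A15 (Phvul.002G170300) had 16.9, 12.03 and 29.4 FPKM in the golden libraries and 196.5, 265 and 243 in the green ones (log2 fold change -3.59, SE 0.46, adjusted p = 1.0e-04). No golden library reached a green one. In the other direction, xyloglucan endotransglycosylase 6 (Phvul.009G233200) stood at 932, 234 and 215 FPKM in the golden line and 0.697, 48.0 and 5.39 in the green line (log2 fold change 4.67, SE 1.15, adjusted p = 0.0052), although green replicate 2 lay far above the other green libraries. Of 28 tested aquaporins, the water channels, 7 were lower and 3 higher (median log2 -0.05), and 4 were lower without golden replicate 2. Plasma membrane intrinsic protein 1;4 (Phvul.002G290400) stood at 44.5, 32.1 and 53.4 FPKM in the golden libraries and 573, 340.2 and 269 in the green ones (log2 fold change -3.21, SE 0.49, adjusted p = 2.8e-04). The most abundant uncalled member, plasma membrane intrinsic protein 2;4 (Phvul.005G135300), had 847, 592 and 651 FPKM in the golden line and 897, 909 and 713 in the green line (log2 fold change -0.29, SE 0.19, adjusted p = 0.24).

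Pectin genes were lower in 32 of 110 tested and higher in 9 (median log2 -0.52), or in 4 without green replicate 2. The pectin methylesterase or inhibitor gene Phvul.009G224200 stood at 3.32, 2.55 and 7.50 FPKM in the golden libraries and 69.6, 47.2 and 62.8 in the green ones, more than 10 times lower on average in golden pods (log2 fold change -3.75, SE 0.44, adjusted p = 5.8e-05). Acetylesterases of pectin were split, with 2 of 10 tested genes higher and 3 lower, and 4 higher without golden replicate 1. Phvul.002G123900 was the higher of them with the largest change, at 18.8, 26.0 and 14.4 FPKM in the golden line and 4.64, 5.18 and 7.16 in the green line (log2 fold change 1.80, SE 0.33, adjusted p = 8.6e-04). Phvul.003G124700 was lower, at 9.81, 18.1 and 28.7 FPKM in the golden libraries and 79.3, 57.7 and 55.6 in the green ones (log2 fold change -1.78, SE 0.33, adjusted p = 0.0010). The most abundant, Phvul.003G277500, stood at 212, 288 and 346 FPKM in the golden line and 371, 429 and 347 in the green line and did not pass (log2 fold change -0.44, SE 0.18, adjusted p = 0.063).

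Cellulose and xylan genes went both ways, with 12 of 73 tested genes higher and 18 lower (median log2 -0.25, 6 higher without green replicate 1 and 7 without golden replicate 2), as did lignin genes with 4 and 5 of 47 (median log2 0.22, 3 lower without golden replicate 1 or green replicate 1). Cellulose synthase A4 (Phvul.009G242700), a subunit of secondary wall cellulose synthase, stood at 9.51, 36.9 and 27.6 FPKM in the golden libraries and 0.922, 3.40 and 5.79 in the green ones (log2 fold change 2.91, SE 0.89, adjusted p = 0.018). Its call was lost without golden replicate 2, green replicate 1 or green replicate 2 (adjusted p up to 0.067). Ferulic acid 5-hydroxylase 1 (Phvul.004G159900), which steers lignin towards syringyl units, stood at 56.5, 26.7 and 13.5 FPKM in the golden line and 3.56, 6.74 and 5.83 in the green line (log2 fold change 2.58, SE 0.50, adjusted p = 0.0013). In both genes the lowest golden library lay above the highest green one. Both were among the higher genes and do not stand for their groups, which were called in both directions. Flavonoid genes had a median log2 of 0.59, with 3 of 28 tested genes higher and 6 lower. These counts were unstable. With DESeq2 7 were higher, and 5 without golden replicate 3. The lower genes numbered 2 without golden replicate 1 or golden replicate 2, and 3 without green replicate 1 or green replicate 3. With the 14 DAF libraries alone 7 were higher and 3 lower. Flavanone 3-hydroxylase (Phvul.003G261900), an early step of flavonoid synthesis, stood at 199, 158 and 63.4 FPKM in the golden libraries and 50.8, 15.7 and 43.7 in the green ones and did not pass, with a wide spread in both lines (log2 fold change 1.90, SE 0.80, adjusted p = 0.070).

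Cuticle and suberin genes were split at 21 higher and 23 lower of 104 tested (median log2 0.00). The genes of this group named next were both among the higher ones and do not stand for it. Glycerol-3-phosphate acyltransferase 3 (Phvul.007G212600), of a family that builds cutin and suberin monomers, stood at 35.2, 29.4 and 10.9 FPKM in the golden line and 0.742, 0.449 and 0.505 in the green line (log2 fold change 5.42, SE 0.86, adjusted p = 3.7e-04). The gene of 3-ketoacyl-CoA synthase 19 (Phvul.007G009200), which lengthens fatty acids, had 115, 65.1 and 71.4 FPKM in the golden libraries and 2.39, 14.03 and 10.7 in the green ones (log2 fold change 3.23, SE 0.54, adjusted p = 5.0e-04). Lipid-transfer proteins were lower in 22 of 66 tested genes and higher in 3 (median log2 -2.18, the lowest of the groups), and 14 were lower without golden replicate 1 or golden replicate 2. The higher count was 1 without golden replicate 2 or any 1 green library, and 5 with the 14 DAF libraries alone. The 2 most abundant members did not pass. Lipid transfer protein 3 (Phvul.010G069100) stood at 3304, 5062 and 5796 FPKM in the golden line and 2288, 2747 and 3252 in the green line (log2 fold change 0.78, SE 0.39, adjusted p = 0.12). The share of the group in the summed FPKM overlapped between the lines, at 1.12% to 1.90% in golden and 1.37% to 1.67% in green libraries.

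Among hormone genes, those of jasmonate and ethylene were higher more often than lower. Of 51 tested jasmonate genes 22 were higher and 4 lower (median log2 0.82), and 12 were higher without golden replicate 2 or green replicate 2 and 14 without green replicate 1. Lipoxygenase 2 (Phvul.011G056500), which in the plastid starts jasmonate synthesis in Arabidopsis, stood at 389, 354.5 and 113 FPKM in the golden libraries and 7.93, 12.5 and 10.2 in the green ones (log2 fold change 4.80, SE 0.90, adjusted p = 0.0010). The gene of 12-oxophytodienoate reductase 2 (Phvul.002G043100) had 25.0, 14.7 and 4.41 FPKM in the golden line and 0.662, 0.565 and 2.16 in the green line (log2 fold change 3.71, SE 0.70, adjusted p = 0.0011). The most abundant lipoxygenase, lipoxygenase 1 (Phvul.005G156900), overlapped between the lines at 813, 1625 and 3113 FPKM in the golden libraries and 1770.0, 1715 and 990.3 in the green ones and did not pass (log2 fold change 0.30, SE 0.48, adjusted p = 0.64).

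Of 44 tested ethylene genes 17 were higher and 6 lower (median log2 0.64). The count of higher genes was 5 without green replicate 1, 7 without golden replicate 1 and 11 without golden replicate 2 or green replicate 3. That of lower genes was 2 without green replicate 2 and 3 without green replicate 3. ACC synthase 10 (Phvul.002G152200), of the family that makes the ethylene precursor ACC, stood at 27.4, 28.4 and 40.8 FPKM in the golden line and 1.03, 2.77 and 3.73 in the green line (log2 fold change 3.71, SE 0.62, adjusted p = 5.3e-04). An ethylene-forming enzyme (Phvul.008G214200), which turns ACC into ethylene, stood at 309, 276.5 and 54.4 FPKM in the golden libraries and 5.64, 24.4 and 29.1 in the green ones (log2 fold change 3.45, SE 0.61, adjusted p = 7.2e-04). Golden replicate 3 was far below the other golden libraries in the second gene, yet above every green one.

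Auxin, cytokinin and gibberellin genes were called in both directions. Of 170 tested auxin genes 34 were higher and 27 lower (median log2 0.12), and 13 were lower without golden replicate 2 and 16 without green replicate 1. The repressor gene indole-3-acetic acid 7 (Phvul.007G176600) stood at 294, 88.9 and 137 FPKM in the golden line and 1331, 920.4 and 1126 in the green line (log2 fold change -2.72, SE 0.65, adjusted p = 0.0046). A GH3 gene (Phvul.011G113000), of a family that conjugates auxin or other hormones to amino acids, had 11.7, 9.21 and 5.28 FPKM in the golden libraries and 0.261, 0.147 and 0.522 in the green ones (log2 fold change 4.79, SE 0.75, adjusted p = 3.3e-04). Of 49 tested cytokinin genes 13 were higher and 9 lower (median log2 0.26), with 5 lower without golden replicate 3. Response regulator 9 (Phvul.009G127000), which cytokinin induces in Arabidopsis, stood at 5.51, 15.4 and 10.7 FPKM in the golden line and 48.4, 34.9 and 35.9 in the green line (log2 fold change -1.93, SE 0.31, adjusted p = 4.3e-04). Of 31 tested gibberellin genes 4 were higher and 6 lower (median log2 -1.14). There were 2 higher without golden replicate 1 or any 1 green library, and 3 lower without golden replicate 2 or green replicate 1. Gibberellin 2-oxidase (Phvul.006G165000), which inactivates gibberellin, stood at 19.7, 3.33 and 2.28 FPKM in the golden libraries and 0.257, 0.315 and 0.726 in the green ones (log2 fold change 4.24, SE 0.89, adjusted p = 0.0020). This gene was among the higher ones, whereas the median of the group was negative.

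The WRKY, NAC and MYB families of transcription factors were higher more often than lower. Of 74 tested WRKY genes 28 were higher and 2 lower (median log2 1.15), of 83 NAC genes 24 and 6 (median log2 0.58), and of 123 MYB genes 33 and 10 (median log2 0.78, 16 higher without green replicate 1). The 2 lower WRKY genes were 1 without golden replicate 2. WRKY DNA-binding protein 75 (Phvul.001G088200), which promotes leaf senescence in Arabidopsis, stood at 42.3, 10.8 and 4.16 FPKM in the golden line and 0.0619, 1.01 and 0.459 in the green line (log2 fold change 5.25, SE 1.04, adjusted p = 0.0014). A NAC gene (Phvul.005G084500) stood at 97.8, 53.4 and 12.6 FPKM in the golden libraries and 0.212, 0.391 and 1.04 in the green ones (log2 fold change 6.64, SE 0.99, adjusted p = 2.5e-04). Myb domain protein 94 (Phvul.009G187700), a regulator of cuticular wax in Arabidopsis, had 44.8, 50.2 and 21.3 FPKM in the golden line and 3.14, 3.27 and 2.74 in the green line (log2 fold change 3.64, SE 0.55, adjusted p = 2.7e-04). Golden replicate 3 was the lowest golden library in all 3 genes, and the lines did not overlap. The MADS-box family had 6 of 37 tested genes higher and 2 lower (median log2 -0.00), and from 0 (without golden replicate 2) to 4 (without golden replicate 3) lower when 1 library was left out. With any 1 of the other 4 left out, 1 was lower. AGAMOUS-like 6 (Phvul.004G123500) stood at 30.2, 24.9 and 25.6 FPKM in the golden libraries and 0.882, 1.97 and 1.72 in the green ones (log2 fold change 4.14, SE 0.55, adjusted p = 1.2e-04). Genes named for senescence or autophagy had 8 of 41 tested higher and 6 lower (median log2 0.17).

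Immune receptor genes were higher in 104 of 301 tested and lower in 17 (median log2 0.84). When only genes with a mean of at least 5 FPKM in either line were tested, 27 of 42 were higher and 2 lower. Some of them were read almost in one line only. A TIR-NBS-LRR gene (Phvul.004G135100) stood at 5.68, 5.09 and 4.92 FPKM in the golden libraries and 0 in the 3 green ones. An NB-ARC gene (Phvul.002G129900) had 0.0848, 0.0525 and 0.0321 FPKM in the golden libraries and 7.53, 8.42 and 7.61 in the green ones (log2 fold change -7.06, SE 0.43, adjusted p = 1.6e-07). Both were steady within the line that had them. Pathogenesis-related and MLP-like genes, many of which mark defence or ripening tissue, were lower in 31 of 125 tested and higher in 13 (median log2 -0.05), and 18 were lower without golden replicate 2. MLP-like protein 43 (Phvul.011G182700) stood at 469, 21.6 and 201 FPKM in the golden line and 3803, 4268 and 3394 in the green line (log2 fold change -4.07, SE 0.98, adjusted p = 0.0045). Basic pathogenesis-related protein 1 (Phvul.006G196900) had 869, 259.8 and 348.5 FPKM in the golden libraries and 17.6, 59.5 and 32.6 in the green ones (log2 fold change 3.75, SE 0.64, adjusted p = 5.8e-04).

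Families of secondary metabolism were also higher more often than lower, with 52 and 16 of 173 tested cytochrome P450 genes (median log2 0.52), 50 and 24 of 161 glycosyltransferases (median log2 0.47) and 15 and 6 of 44 glutathione transferases (median log2 0.67, 9 higher without golden replicate 1). UDP-glucosyl transferase 78D2 (Phvul.002G214300), named for an Arabidopsis enzyme that adds glucose to flavonoids, stood at 209.5, 127 and 83.0 FPKM in the golden line and 3.79, 3.96 and 2.96 in the green line (log2 fold change 5.26, SE 0.55, adjusted p = 2.7e-05). Glutathione S-transferase F11 (Phvul.006G087500) stood at 266, 215 and 113.5 FPKM in the golden libraries and 6.85, 15.1 and 21.5 in the green ones (log2 fold change 3.79, SE 1.02, adjusted p = 0.0086). Golden replicate 1 was the highest library in both.

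The smallest p of all genes belonged to actin-11 (Phvul.006G209900), a subunit of the actin cytoskeleton, at 132, 123 and 129.5 FPKM in the golden line and 9.78, 11.4 and 10.7 in the green line. The 3 libraries of each line lay close together (log2 fold change 3.59, SE 0.12, adjusted p = 3.5e-10). A thioredoxin superfamily gene (Phvul.004G112200) stood at 21.04, 23.9 and 18.1 FPKM in the golden libraries and 1.49, 1.10 and 1.78 in the green ones (log2 fold change 3.83, SE 0.22, adjusted p = 1.6e-07). A zinc finger protein-related gene (Phvul.003G094000) had 0.993, 0.662 and 1.001 FPKM in the golden line and 12.9, 16.3 and 13.6 in the green line (log2 fold change -4.01, SE 0.24, adjusted p = 1.6e-07). Reads of near-identical gene copies may have been divided differently in the lines, and the part of such division in these values was not tested.

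A set of genes was read in one line only. At 14 DAF 279 tested genes had 0 counts in all 3 green libraries, of which 179 were called and 71 reached a mean of 1 FPKM in the golden line, and 77 had 0 counts in all 9 green libraries of the series. Conversely 317 genes had 0 counts in all 3 golden libraries, of which 188 were called and 70 reached 1 FPKM in the green line, and 121 had 0 counts in all 9 golden libraries. As these genes were picked for 0 counts in all 3 libraries of a line, the direction of a call was fixed. The numbers called are therefore no separate support for a difference. SPX domain gene 2 (Phvul.003G164900), of a family that senses phosphate, stood at 13.1, 16.9 and 11.4 FPKM in the golden libraries and at 0 in the green ones, at least 1758-fold higher against a floor of 3 counts over the 3 green libraries. A malectin receptor-like kinase gene (Phvul.008G027200) stood at 20.2, 20.3 and 18.4 FPKM against 0, at least 1307-fold higher by the same floor. Sulfotransferase 2A (Phvul.011G111600) was at 0 in the golden line and at 18.2, 14.7 and 16.8 FPKM in the green one, at least 1139-fold lower, and a haloacid dehalogenase-like hydrolase gene (Phvul.005G164600) at 0 and 17.9, 19.5 and 16.9 FPKM, at least 788.5-fold lower. A gene at 0 here is not detected at this depth, and a missing gene, a sequence that differs from the reference and a silent gene cannot be told apart.

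**Figure D4:**
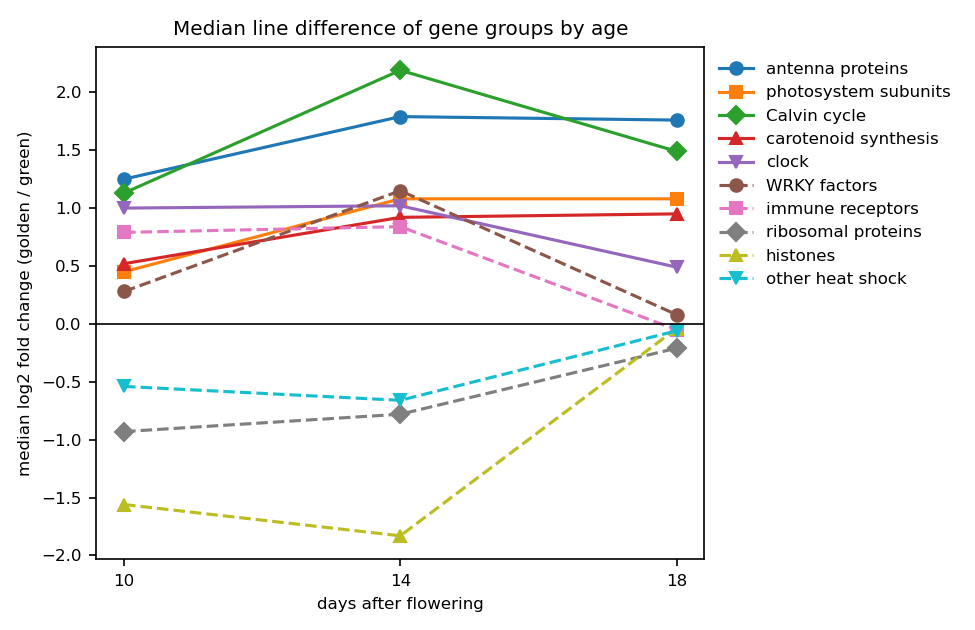
Median log2 fold change, golden against green, of the tested members of 10 gene groups at 10, 14 and 18 DAF, each from its own 3 against 3 libraries. The photosynthetic groups lie above 0 at all 3 ages, whereas the median of histones goes from -1.56 and -1.83 to -0.04 at 18 DAF and that of clock genes from 1.00 and 1.02 to 0.49.

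Whether the difference at 14 DAF was the same as at the ages before and after it was tested as a change of the line difference with age, in the same fit. From 10 to 14 DAF the difference changed for 218 genes (0.983% of those tested), 66 towards the golden line (0.298%) and 152 towards the green line (0.685%). From 14 to 18 DAF it changed for 1694 genes (7.64%), 803 towards the golden line (3.62%) and 891 towards the green line (4.02%). Both counts moved strongly with single libraries. From 10 to 14 DAF 520 genes passed without golden replicate 3 of 14 DAF and 59 without golden replicate 2 of 10 DAF, and from 14 to 18 DAF 3558 passed without golden replicate 2 of 18 DAF and 560 without golden replicate 2 of 14 DAF. At 18 DAF golden replicate 2 stood apart from its group with 4.99% of the summed FPKM in antenna genes, against 2.33% and 2.60% in replicates 1 and 3, and golden replicate 3 with 0.278% in clock genes, against 0.143% and 0.153% in replicates 1 and 2.

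In most photosynthetic genes the change with age did not pass the test. Of the 33 antenna and 58 photosystem genes 0 passed in either step in edgeR's test. From 10 to 14 DAF 2 and 10 of them had an unadjusted p under 0.05 and DESeq2 called 0 and 3, and from 14 to 18 DAF 1 and 1 had such a p and DESeq2 called 1 and 0. Their median log2 fold changes were 1.25 and 0.45 at 10 DAF, 1.79 and 1.08 at 14 DAF, and 1.76 and 1.08 at 18 DAF. One chlorophyll gene that did pass was protochlorophyllide oxidoreductase Phvul.011G148900, with log2 fold changes of -0.05 at 10 DAF, 0.12 at 14 DAF and 2.18 at 18 DAF (change of the line difference 2.06 on the log2 scale, SE 0.48, adjusted p = 0.024). This call was lost in 5 of 12 fits that left out 1 library, with adjusted p up to 0.067. Its mean in the green line was 37.1 ± 8.95 FPKM at 14 DAF and 29.2 ± 5.34 at 18 DAF, and in the golden line 40.9 ± 7.59 and 121 ± 60.3.

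The line difference of some clock and heat shock genes changed from 14 to 18 DAF. In clock genes 7 of 21 changed towards the green line and 1 towards the golden line, or 5 to 9 and 0 or 1 when 1 library was left out. With only the groups compared in the fit, 3 clock genes changed towards the green line and 0 towards the golden line. DESeq2 gave 8 and 2, and the other alternatives gave 6 or 7 and 0. Pseudo-response regulator 5 (Phvul.009G045000) went from a log2 fold change of 3.99 to 0.70 (change of the line difference -3.28 on the log2 scale, SE 0.41, adjusted p = 0.0020). GIGANTEA (Phvul.004G088300) went from 3.38 to 0.83 (change of the line difference -2.55 on the log2 scale, SE 0.44, adjusted p = 0.0069). Of 48 small heat shock genes 11 changed towards the golden line and 2 towards the green line, and of 53 other heat shock genes 13 and 3. Green replicate 3 of 18 DAF stood apart, with 0.442% of the summed FPKM in small heat shock genes against 0.237% and 0.228%, and 0.440% in the others against 0.190% in both other green libraries. Without it 12 and 3 small heat shock genes and 19 and 3 others changed. Towards the golden line, 4 to 7 small heat shock genes changed without any 1 golden library or green replicate 3 of 14 DAF, or golden replicate 1, green replicate 1 or green replicate 2 of 18 DAF. Of the other heat shock genes 3 to 8 changed that way without golden replicate 1, golden replicate 2 or any 1 green library of 14 DAF, or golden replicate 1, green replicate 1 or green replicate 2 of 18 DAF. With the groups compared alone 1 gene of each group changed that way. HSP90.1 (Phvul.004G107700) went from -5.21 to -0.65 (change of the line difference 4.56 on the log2 scale, SE 0.96, adjusted p = 0.016). In the golden line HSP90.1 had a mean of 15.7 ± 2.45 FPKM at 14 DAF and 153.5 ± 40.6 at 18 DAF, and in the green line 585 ± 245 and 261 ± 331.

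Some genes turned over between the ages. Xyloglucan endotransglycosylase 6 (Phvul.009G233200) was higher in the golden line at 14 DAF and had a mean of 58.0 ± 28.5 FPKM against 345 ± 227 at 18 DAF (change of the line difference -7.07 on the log2 scale, SE 1.54, adjusted p = 0.018). The ethylene-forming enzyme Phvul.008G214200 had a log2 fold change of 3.45 at 14 DAF and -2.50 at 18 DAF (change of the line difference -5.96 on the log2 scale, SE 0.85, adjusted p = 0.0031). WRKY DNA-binding protein 40 (Phvul.010G161100), a factor of stress and defence responses, stood at 32.9, 27.8 and 3.81 FPKM in the golden libraries and 0.159, 1.199 and 0.210 in the green ones at 14 DAF, when the lines did not overlap. Its means were 1.62 ± 0.252 and 6.96 ± 1.40 FPKM at 18 DAF (change of the line difference -7.28 on the log2 scale, SE 1.31, adjusted p = 0.0085). Alcohol dehydrogenase 1 (Phvul.009G149500), an enzyme of fermentation, had a mean of 0.317 ± 0.213 FPKM in the golden line at 14 DAF and 32.8 ± 35.7 at 18 DAF, against 1.31 ± 0.598 and 0.854 ± 0.436 in the green line (change of the line difference 7.39 on the log2 scale, SE 1.63, adjusted p = 0.019). The call was lost without golden replicate 1 or golden replicate 2 of 14 DAF (adjusted p up to 0.056), and the SD at 18 DAF exceeds the mean.

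The next 3 genes changed towards the green line from 10 to 14 DAF. A GDSL lipase gene (Phvul.006G107300) had means of 89.0 ± 45.3 FPKM in golden and 11.8 ± 4.68 in green pods at 10 DAF. At 14 DAF it stood at 3.41, 1.87 and 6.84 FPKM in the golden line and 71.2, 33.6 and 64.6 in the green line (change of the line difference -6.72 on the log2 scale, SE 1.17, adjusted p = 0.015). The order of the lines was thus turned, and the call was lost without golden replicate 2 of 14 DAF or green replicate 3 of 10 DAF (adjusted p up to 0.060). An HXXXD-type acyltransferase gene (Phvul.002G000900) had means of 11.9 ± 1.54 and 0.587 ± 0.313 FPKM at 10 DAF and 3.13 ± 2.70 and 7.35 ± 4.11 at 14 DAF (change of the line difference -5.51 on the log2 scale, SE 0.87, adjusted p = 0.011). A pectin lyase-like gene (Phvul.001G135100), of a superfamily that holds pectin-degrading enzymes, had 49.3 ± 4.46 and 0.784 ± 0.375 FPKM at 10 DAF and 54.6 ± 7.29 and 21.9 ± 7.18 at 14 DAF (change of the line difference -4.66 on the log2 scale, SE 0.78, adjusted p = 0.013).

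In the 3 genes below, whose difference changed towards the golden line in this step, the green mean was lower at 14 DAF than at 10 DAF, which was not tested within the line. Lipid transfer protein 6 (Phvul.010G069500) had means of 24.0 ± 1.81 FPKM in golden and 246 ± 77.2 in green pods at 10 DAF, and of 22.9 ± 5.61 and 27.2 ± 2.58 at 14 DAF (change of the line difference 3.09 on the log2 scale, SE 0.38, adjusted p = 0.0039). A cytochrome P450 (Phvul.011G213700) had 7.90 ± 0.911 and 17.3 ± 4.02 FPKM at 10 DAF and 14.2 ± 3.43 and 3.79 ± 0.923 at 14 DAF (change of the line difference 3.002 on the log2 scale, SE 0.50, adjusted p = 0.013). Pectin methylesterase 3 (Phvul.009G261700), of a family that removes methyl groups from pectin, had 6.48 ± 0.363 and 45.8 ± 1.71 FPKM at 10 DAF and 9.73 ± 4.23 and 7.19 ± 2.32 at 14 DAF (change of the line difference 3.22 on the log2 scale, SE 0.57, adjusted p = 0.015). Its call was lost without golden replicate 2 of 10 DAF (adjusted p = 0.054).

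**Figure D5:**
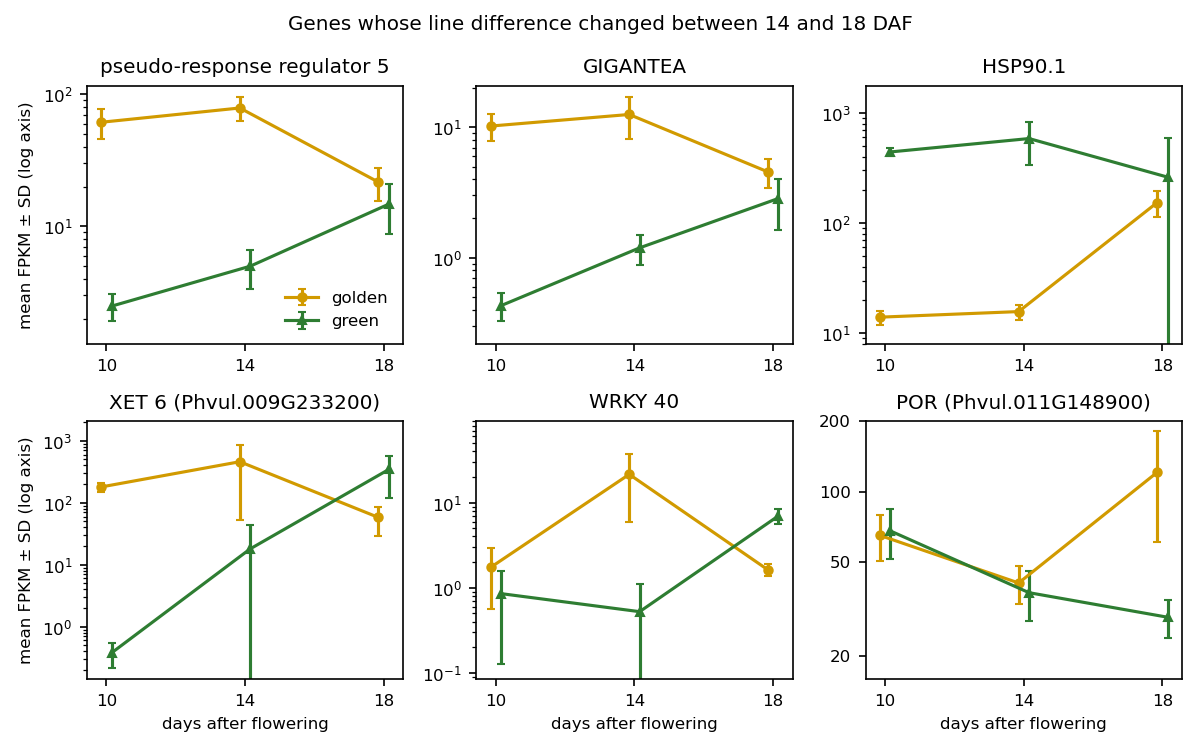
Mean FPKM ± SD (log axis, 3 libraries per point; a bar that would reach 0 is cut at the axis) of 6 genes in the golden (gold) and green (green) lines at 10, 14 and 18 DAF. The lines lie apart at 14 DAF in pseudo-response regulator 5, GIGANTEA, HSP90.1, xyloglucan endotransglycosylase 6 and WRKY 40, and in the protochlorophyllide oxidoreductase gene Phvul.011G148900 they lie apart at 18 DAF.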

How the data were processed

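The deposited table gives, per the file headers, a read count and an FPKM value for each gene and library. The authors' estimated counts are whole numbers of fragments per gene, and the FPKM values deposited beside them scale by gene length and mapped fragments. No aligner, counter or build is given in the sources used here. Total counts of the 18 libraries run from 48757139 to 74377200. RNA was read with paired ends on a NovaSeq instrument, per the labels' protocols.

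The 635 rows without a gene name (2.20% to 3.97% of counts) were left out. The estimated counts were scaled by TMM, filtered with filterByExpr and tested with edgeR 4.0.16's quasi-likelihood F test in 1 model of 6 groups and 18 libraries (common dispersion 0.152), with Benjamini-Hochberg adjustment over 22177 genes and calls at an adjusted p under 0.05. SE is the absolute log2 fold change divided by the square root of F. Levels per library are FPKM. Shares are percent of the summed FPKM of named genes. The test was tried on simulated data with 200 changed genes, far fewer than the 9132 called at 14 DAF. That trial therefore does not show how the test performs on these data. Alternatives used limma 3.58.1 on log2(FPKM + 1) and log2(FPKM + 0.1), DESeq2 1.42.0 and other filters, scalings and libraries. Between replicates, the counts differed by more than sampling noise (chi-square per gene of at least 88.5).

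Gene groups come from words in the deposited descriptions and KEGG orthologues. The members and lists were chosen with earlier results of these data known. Genes named were, per group, up to 4 called genes per direction with a mean of at least 5 FPKM and the 2 most abundant uncalled ones, members of groups of at most 30, the 10 smallest p, genes at 0 in one line, the largest changes with age and the tissue markers. Of the identifiers, 0 matched the reference table, so no sequence is shown.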

Additional observations from a re-analysis of the deposited data

Results flagged for a closer look

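For the genes below, the difference between golden and green pods itself changed with age, by edgeR's quasi-likelihood test of the interaction with an adjusted p under 0.05 over all tested genes. Each value is the change in the log2 difference, golden minus green. A negative value means that the golden line stood lower relative to the green line at the older age. Of 42 such changes 20 kept an adjusted p under 0.05 when any 1 of the 12 libraries of both ages was left out. The other 22 lost it in at least 1 of these fits, 21 of them without golden replicate 2 of 14 DAF, 18 without golden replicate 1 of 14 DAF and 16 without green replicate 2 of 18 DAF.

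Among the changes that held in every such fit, those from 10 to 14 DAF were -5.51 for an HXXXD-type acyltransferase (Phvul.002G000900) and -4.66 for a pectin lyase-like gene (Phvul.001G135100). They were also 3.09 for lipid transfer protein 6 (Phvul.010G069500) and 3.002 for a cytochrome P450 (Phvul.011G213700). From 14 to 18 DAF the clock genes changed by -2.55 for GIGANTEA (Phvul.004G088300), -3.28 for pseudo-response regulator 5 (Phvul.009G045000) and -2.00 for the clock-controlled RNA-binding protein CCR2 (Phvul.009G023700). The blue-light receptor gene FKF1 changed by -2.00 (Phvul.002G321800). The chaperone genes changed by 4.56 for HSP90.1 (Phvul.004G107700) and 6.002 for a mitochondrial small heat shock protein (Phvul.011G016100), and heat shock factor A8 by -1.77 (Phvul.002G322700). For cell walls and cuticle the change was -7.07 for xyloglucan endotransglycosylase 6 (Phvul.009G233200) and -3.45 for 3-ketoacyl-CoA synthase 19 (Phvul.007G009200). For hormone genes it was -5.96 for the ethylene-forming enzyme (Phvul.008G214200), 3.47 for response regulator 9 (Phvul.009G127000) and -3.32 for the BRI1-associated receptor kinase (Phvul.002G207000). For transcription factors it was -7.28 for WRKY40 (Phvul.010G161100), -4.56 for MYB94 (Phvul.009G187700) and -6.90 for a NAC gene (Phvul.005G084500). NDF5 of cyclic electron flow changed by -2.69 (Phvul.004G079500).

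For the other 22 changes, the number of the 12 fits that lost the call follows the gene. From 10 to 14 DAF the change was -6.72 for a GDSL lipase gene (Phvul.006G107300, 2 of 12), 3.22 for pectin methylesterase 3 (Phvul.009G261700, 1 of 12) and -2.43 for a peroxidase (Phvul.005G113800, 11 of 12). From 14 to 18 DAF it was, for plastid and carbon genes, 2.06 for protochlorophyllide oxidoreductase A (Phvul.011G148900, 5 of 12), 1.57 for ferredoxin 3 (Phvul.011G094400, 9 of 12) and -1.62 for alpha-glucan phosphorylase 2 (Phvul.006G064100, 5 of 12). Alcohol dehydrogenase 1 changed by 7.39 (Phvul.009G149500, 2 of 12). Light and heat genes gave -1.68 for cryptochrome 2 (Phvul.007G273300, 8 of 12), 3.59 for HSP70B (Phvul.003G154800, 6 of 12) and -1.39 for heat shock factor A4A (Phvul.006G171700, 5 of 12). Wall, cuticle and phenolic genes gave -4.24 for cellulose synthase A4 (Phvul.009G242700, 10 of 12), 2.63 for expansin A15 (Phvul.002G170300, 2 of 12), -4.53 for GPAT3 (Phvul.007G212600, 5 of 12) and -2.70 for UGT78D2 (Phvul.002G214300, 7 of 12). The carotenoid-cleaving dioxygenase NCED4 changed by -1.98 (Phvul.002G120600, 9 of 12). Hormone genes gave -4.15 for gibberellin 2-oxidase (Phvul.006G165000, 9 of 12) and -3.42 for a GH3 gene (Phvul.011G113000, 8 of 12). Transcription factors gave -5.00 for WRKY75 (Phvul.001G088200, 7 of 12), -2.64 for AGAMOUS-like 6 (Phvul.004G123500, 7 of 12) and -3.62 for a bHLH gene (Phvul.005G036900, 9 of 12). Genes of dividing cells gave 2.66 for a histone gene (Phvul.008G033700, 9 of 12) and 2.20 for kinesin 3 (Phvul.011G141500, 4 of 12).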

How the results depend on the processing

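The count of genes that differed at 14 DAF stayed within 1.5 times its value under every alternative run. The counts of genes whose line difference changed with age did not. From 10 to 14 DAF it was 1192 with DESeq2, 589 and 391 with limma on log2(FPKM + 1) and log2(FPKM + 0.1), and 1175 when only the groups compared entered the fit. From 14 to 18 DAF it was 3576 with DESeq2 and 234 with only the groups compared. With 1 library left out the count ran from 6920 to 9029 at 14 DAF, from 59 (without golden replicate 2 of 10 DAF) to 520 (without golden replicate 3 of 14 DAF) from 10 to 14 DAF, and from 560 (without golden replicate 2 of 14 DAF) to 3558 (without golden replicate 2 of 18 DAF) from 14 to 18 DAF. Leaving out any 1 of the 12 libraries moved the later count by over 1.5 times, and any but green replicate 1 of 14 DAF the earlier one. With the replicate number as a block the counts were 8480 at 14 DAF, 121 from 10 to 14 DAF and 1139 from 14 to 18 DAF. The labels do not say that equal replicate numbers pair the libraries. At 14 DAF the deviations of same-numbered libraries from their group means correlated at -0.15, -0.004 and -0.161, and 3 such values cannot exclude a pairing. The causes were not tested. The median log2 fold change of all genes was -2e-04, and 0 and 2e-04 with relative log expression scaling and with library totals. Including the rows without a gene name, an alternative chosen after seeing the data, gave 9474, 263 and 1684 genes. No called fold change of a named gene at 14 DAF turned its direction under any of these alternatives, and 4 lost their call when only the groups compared entered the fit (Phvul.002G110800, Phvul.003G051100, Phvul.007G062000 and Phvul.008G184200). Some named genes that did not pass gained a call. They numbered 6 with DESeq2, 4 with limma on log2(FPKM + 1) and 3 on log2(FPKM + 0.1). A further alternative, with only the groups compared, gave 4, the filter on FPKM 2 and library totals 1. Without golden replicate 3 of 14 DAF 5 gained a call, and without green replicate 3 of 14 DAF 3. Counts of called genes per group, with no library left out, stayed within 1.5 times in 990 comparisons with an alternative and moved further in 50. Requiring a mean of 5 FPKM left fewer genes of a group to test. Genes near 0 counts are limited by depth.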

Other observations

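Genes of phosphate supply were split between the lines. Of 48 tested genes 12 were higher and 10 lower (median log2 -0.01), and 7 were higher without green replicate 1. Purple acid phosphatase 17 (Phvul.002G332100), which phosphate starvation induces in Arabidopsis, stood at 5.62, 4.51 and 2.09 FPKM in the golden libraries and 46.8, 122 and 348 in the green ones (log2 fold change -5.37, SE 1.09, adjusted p = 0.0017), and the lines did not overlap. Its neighbour by number, purple acid phosphatase 3 (Phvul.002G332000), was higher at 186.5, 216 and 165 FPKM in the golden line and 61.3, 67.0 and 69.6 in the green line (log2 fold change 1.51, SE 0.41, adjusted p = 0.0092). Phosphate transporter 4;5 (Phvul.003G171700) stood at 25.8, 22.2 and 15.99 FPKM in the golden libraries and 5.96, 5.68 and 8.10 in the green ones (log2 fold change 1.69, SE 0.26, adjusted p = 2.7e-04).

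Peroxidases were called in both directions, with 12 of 72 tested genes higher and 12 lower (median log2 -0.12). The peroxidase gene Phvul.005G113800 stood at 2.69, 3.11 and 7.08 FPKM in the golden line and 46.9, 69.2 and 42.8 in the green line (log2 fold change -3.62, SE 0.40, adjusted p = 4.4e-05). Ascorbate peroxidase 6 (Phvul.009G093000), which removes hydrogen peroxide, stood at 23.7, 19.2 and 21.5 FPKM in the golden libraries and 5.85, 6.10 and 9.06 in the green ones (log2 fold change 1.62, SE 0.28, adjusted p = 7.0e-04). Of 126 tested bHLH transcription factors 35 were higher and 20 lower (median log2 0.24). The count of 35 was 22 without green replicate 1, and the count of 20 was 10 without golden replicate 2 and 12 without golden replicate 1. The bHLH gene Phvul.005G036900 stood at 132, 125.5 and 41.0 FPKM in the golden line and 2.88, 5.42 and 5.65 in the green line (log2 fold change 4.42, SE 0.72, adjusted p = 4.3e-04). Of 22 tested brassinosteroid genes 5 were higher and 2 lower (median log2 0.17), and 0 were lower without golden replicate 1, golden replicate 2 or green replicate 1, with 1 lower without green replicate 2. A BRI1-associated receptor kinase gene (Phvul.002G207000), a co-receptor in hormone and immune signalling, stood at 29.5, 37.4 and 10.3 FPKM in the golden libraries and 2.13, 4.96 and 4.58 in the green ones (log2 fold change 2.73, SE 0.43, adjusted p = 3.7e-04).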
